A study of Mus musculus with 8 samples.

Results

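The transcripts of 40 genes that carry out or regulate pre-mRNA splicing were examined in mouse multipotent progenitors (MPPs) that express the NUP98-HOXA10hd fusion (NA) and in wild-type (WT) MPPs. The genes were chosen by name. They comprised 10 SR protein genes, 16 genes of heterogeneous nuclear ribonucleoproteins (hnRNPs), 6 core factors of the spliceosome and 8 other splicing regulators. All 40 were found among the 37980 gene rows of the table, and 39 of them reached the level needed for testing, as did 11451 genes in all. None of the 40 lies on a sex chromosome.

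Splicing removes introns in steps that begin with recognition of the splice sites. The U2AF dimer, encoded by U2af1 and U2af2, reads the end of the intron, the U2 particle with its SF3A and SF3B proteins binds the branch point, and Prpf8 sits at the centre of the catalytic spliceosome. SR proteins mostly promote the use of nearby exons, whereas many hnRNPs oppose it, so the choice between isoforms depends on the balance of both. In blood, U2AF1, SF3B1 and SRSF2 are known as genes that are recurrently mutated in myeloid neoplasms.

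MPPs are progenitors that give rise to every blood lineage but sustain this only transiently. Bone marrow of C57BL/6 mice had been sorted for cells with c-kit, Sca1 and CD135 on the surface that lacked lineage markers, CD48 and CD150, and each library was made from the amplified polyA cDNA of 1000 cells. The 4 NA MPP libraries, NA1 to NA4, came from NA LSL/+; Vav-Cre mice, in which Cre recombinase under the Vav promoter turns on the fusion in blood cells, and the 4 WT MPP libraries, WT1 to WT4, from mice labelled WT. The ages of these mice, whether the WT mice carried Vav-Cre, and whether each library came from its own mouse are not given in the sources used here, so p-values measure the spread between libraries, which may be technical.

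The deposited values are normalised counts, that is, estimated reads per gene after division by 1 factor per library. Estimated depth ran from 3876907 to 4916989 reads. Kit, Ly6a, Flt3 and Cd34, the genes of c-kit, Sca1, CD135 and CD34, were measured at 1103 normalised counts or more in every library, and Ly6a was lower in NA MPPs (log2 fold change -0.28, limma adjusted p = 0.0257), a call that held in 2 of the 8 fits that each left out 1 library. Of the genes whose products were sorted against, Cd48 was at 12.2 to 22.4 in NA MPPs and 34.2 to 83.8 in WT MPPs (-1.58, limma adjusted p = 0.00711), and Slamf1 at 3.69 to 47.9 and 16.9 to 30.6 (not called). Hoxa10 was higher in NA MPPs (log2 fold change 1.21, limma adjusted p = 2.57e-05) and Nup98 was not called (0.24, limma adjusted p = 0.443), but gene totals cannot tell the fusion transcript from either gene. Xist lay between 0.940 and 2.80 normalised counts in the NA MPP libraries and between 869 and 1285 in the WT MPP libraries, so sex and genotype cannot be told apart. NA4 and WT4 each resembled a weighted sum of the other 3 libraries of their group more closely than was estimated for an independent library. The excess variance was 0.00580 against an estimated least value of 0.00728 in the NA group, and 0.00106 against 0.00531 in the WT group. No error was computed for these estimates. Calls are therefore also given without the fourth libraries. Of the control genes above, Hoxa10 was still called (limma adjusted p = 0.00162) and Ly6a (0.163) and Cd48 (0.0675) were not.

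Promoter sequence is shown for 3 genes whose levels differed between the groups: U2af1, with the highest log2 fold change of the 39 tested genes, Hnrnpu, with the smallest adjusted p, and Prpf8, which fell. Each stretch runs from 250 bases before to 50 after a gene start in RefSeq (GRCm38.p6). Only the start farthest upstream was used for each gene. Capitals mark CCAAT and GGGCGG on either strand, and overlapping matches are joined. The U2af1 stretch lies at chr17:31658715-31659014 on the minus strand, that of Hnrnpu at chr1:178337766-178338065 on the minus strand and that of Prpf8 at chr11:75486527-75486826 on the plus strand.
U2af1: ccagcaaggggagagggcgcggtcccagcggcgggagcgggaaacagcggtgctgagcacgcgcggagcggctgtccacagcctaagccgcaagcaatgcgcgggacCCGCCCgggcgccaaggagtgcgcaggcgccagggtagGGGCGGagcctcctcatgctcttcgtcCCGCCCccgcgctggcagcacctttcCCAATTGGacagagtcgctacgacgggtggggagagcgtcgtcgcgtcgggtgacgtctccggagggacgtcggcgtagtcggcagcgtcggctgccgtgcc
Hnrnpu: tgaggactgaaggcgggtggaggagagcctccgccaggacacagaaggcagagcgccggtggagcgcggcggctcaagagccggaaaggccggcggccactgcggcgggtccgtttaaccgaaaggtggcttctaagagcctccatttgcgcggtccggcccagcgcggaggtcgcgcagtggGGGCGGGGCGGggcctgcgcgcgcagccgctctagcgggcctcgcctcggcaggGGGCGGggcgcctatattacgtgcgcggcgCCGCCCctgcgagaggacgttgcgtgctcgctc
Prpf8: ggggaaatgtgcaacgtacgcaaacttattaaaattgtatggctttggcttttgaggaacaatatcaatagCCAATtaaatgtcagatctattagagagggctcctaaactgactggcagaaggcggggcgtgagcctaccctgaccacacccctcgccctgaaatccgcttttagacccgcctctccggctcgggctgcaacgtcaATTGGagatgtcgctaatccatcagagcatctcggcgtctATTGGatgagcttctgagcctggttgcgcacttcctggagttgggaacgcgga
The stretches of the 2 genes that rose were rich in GC, with 72% for U2af1 and 72.7% for Hnrnpu, against 51.3% for Prpf8. The U2af1 stretch held 2 CCAAT and 3 GGGCGG, with 1 CCAAT on each strand in a shared run. Hnrnpu held 4 GGGCGG and no CCAAT, and Prpf8 held 3 CCAAT and no GGGCGG. Of the 40 genes, 37 had a promoter entry, all but Hnrnpul2, Clk1 and U2af2. CCAAT, on either strand, was in 22 of the 37 (59.5%) and in 38.0% of all 27025 promoters of this length. GGGCGG was in 25 (67.6%), against 35.9% of all promoters. TTTAT was in 9 (24.3%), against 40.9%. The median GC content was 62.7% over the 37 promoters and 52.7% over all promoters. Among the 9 genes that rose, 6 had CCAAT, 7 had GGGCGG and 2 had TTTAT.

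The comparison asks which splicing genes differ in level when MPPs carry the fusion. Of the 39 tested genes, 9 were higher and 2 were lower in NA MPPs at a limma adjusted p below 0.05. That is 28.2%, against 17.9% of all tested genes. The higher genes were U2af1, Hnrnpul1, Rbm25, Hnrnpu, Hnrnpa1, Hnrnph1, Tra2b, Hnrnpk and Srsf1, where 10.1% of all genes were called higher. The lower genes were U2af2 and Prpf8, where 7.87% of all genes were called lower. The 2 groups of libraries did not overlap for 15 of the 39 genes, 11 higher and 4 lower, or 38.5% against 22.0% of all genes. The median log2 fold change was 0.16 over the 39 genes and -0.01 over all genes. Values were above 0 for 30 of the 39 and for 5593 of all 11451. With the trend on GC content removed from each library, the median of the 39 was 0.01 against -0.04 over all genes, and with scaling by the library total 0.09 against -0.08. Of the 39, only U2af1, Hnrnpul1 and Rbm25 differed by 2-fold or more. In bulk libraries, fewer cells with a transcript and less of it per cell cannot be told apart. Without the fourth libraries, 5 genes were called higher (U2af1, Rbm25, Hnrnpu, Hnrnpa1 and Hnrnph1) and 1 lower (U2af2), and 4.58% of all genes were called.

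**Figure D1:**
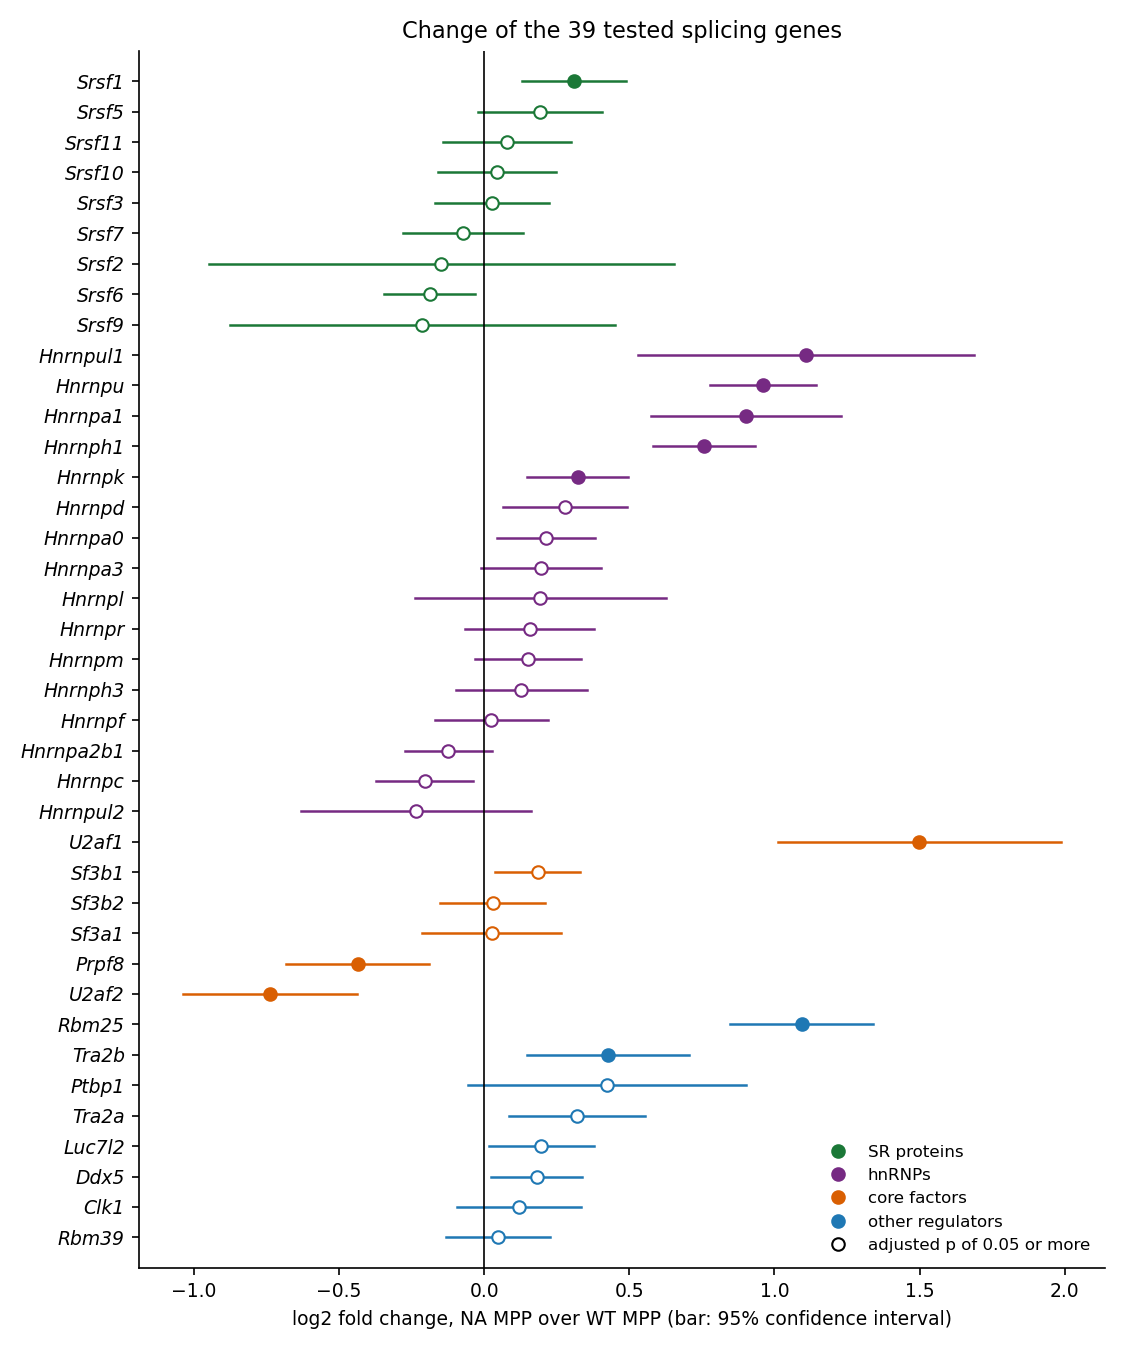
Log2 fold change of NA MPP over WT MPP for the 39 tested splicing genes (horizontal axis), with 95% confidence intervals from the limma fit, grouped by family. Filled points passed an adjusted p of 0.05: 9 lie to the right of 0, of which 5 are hnRNPs, and 2 core factors lie to the left.

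The 6 core factors held both the highest and the lowest log2 fold change of all 39 genes, and these belong to the 2 subunits of U2AF. U2af1 (chr17:31647081-31658892, mm10) encodes the small subunit, which contacts the AG at the intron end. It was measured at 103.6, 118.4, 96.0 and 90.9 normalised counts in NA1 to NA4 and at 35.5, 46.4, 27.3 and 34.6 in WT1 to WT4. The lowest NA MPP library was above the highest WT MPP library, and U2af1 rose by 1.50 on the log2 scale (SE 0.228, limma adjusted p = 0.000579). U2af2 (chr7:5062143-5079938), the large subunit that binds the pyrimidine tract, was measured at 152.2, 156.0, 174.5 and 127.6 in NA1 to NA4 and at 246.8, 275.2, 267.6 and 227.3 in WT1 to WT4. Its groups did not overlap either, in the opposite direction, and it fell by 0.74 (SE 0.140, limma adjusted p = 0.00274). Both calls held without the fourth libraries (limma adjusted p = 0.0131 for U2af1 and 0.0381 for U2af2).

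As a description of the pair, the ratio of U2af2 to U2af1 normalised counts was 1.47, 1.32, 1.82 and 1.40 in NA1 to NA4. It was 6.95, 5.93, 9.79 and 6.56 in WT1 to WT4. The mean was 1.50 ± 0.219 (SD, n = 4) in NA MPPs and 7.31 ± 1.71 (SD, n = 4) in WT MPPs. Every WT MPP library had a higher ratio than every NA MPP library, which follows from the separation of both genes in opposite directions and adds no further result. The ratio is of totals per gene that were not divided by transcript length, so its change between groups can be read but not its level. Per 1000 bases of the principal transcript, U2af1 had 97.8 ± 11.5 (SD, n = 4) in NA MPPs and 34.4 ± 7.53 in WT MPPs. The same measure for U2af2 was 73.1 ± 9.25 in NA MPPs and 122 ± 10.3 in WT MPPs. By length, the order of both subunits was thus inverted between the groups: U2af2 stood above U2af1 in WT MPPs and below it in NA MPPs, and the ranges of the 2 genes did not overlap within either group. U2af1 shares sequence with 3 near copies in the genome, of which 1 is in the table. With that copy added, U2af1 stood at 106.6 ± 11.1 (SD, n = 4) in NA MPPs and 38.3 ± 10.3 in WT MPPs, with no overlap.

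Prpf8 (chr11:75486816-75509449), the U5 protein at the catalytic centre, was at 543.3, 652.4, 691.5 and 480.7 normalised counts in NA1 to NA4 and at 827.4, 839.2, 751.4 and 756.4 in WT1 to WT4. All NA MPP libraries were below all WT MPP libraries, and Prpf8 fell by 0.44 (SE 0.115, limma adjusted p = 0.0187). The call was lost without NA4 (limma adjusted p = 0.0668) and without the fourth libraries (0.136). The 3 U2 proteins were not called. Sf3b1, the largest SF3B subunit, ran from 2939 to 3120 in NA MPPs and from 2546 to 2869 in WT MPPs without overlap (log2 fold change 0.18, limma adjusted p = 0.0787). Sf3b2 and Sf3a1 had log2 fold changes of 0.03 and 0.03, with 95% confidence intervals from -0.15 to 0.21 and from -0.21 to 0.27. The summed normalised counts of the 6 core factors overlapped, at 5914 ± 234 (SD, n = 4) in NA MPPs and 5751 ± 236 in WT MPPs.

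**Figure D2:**
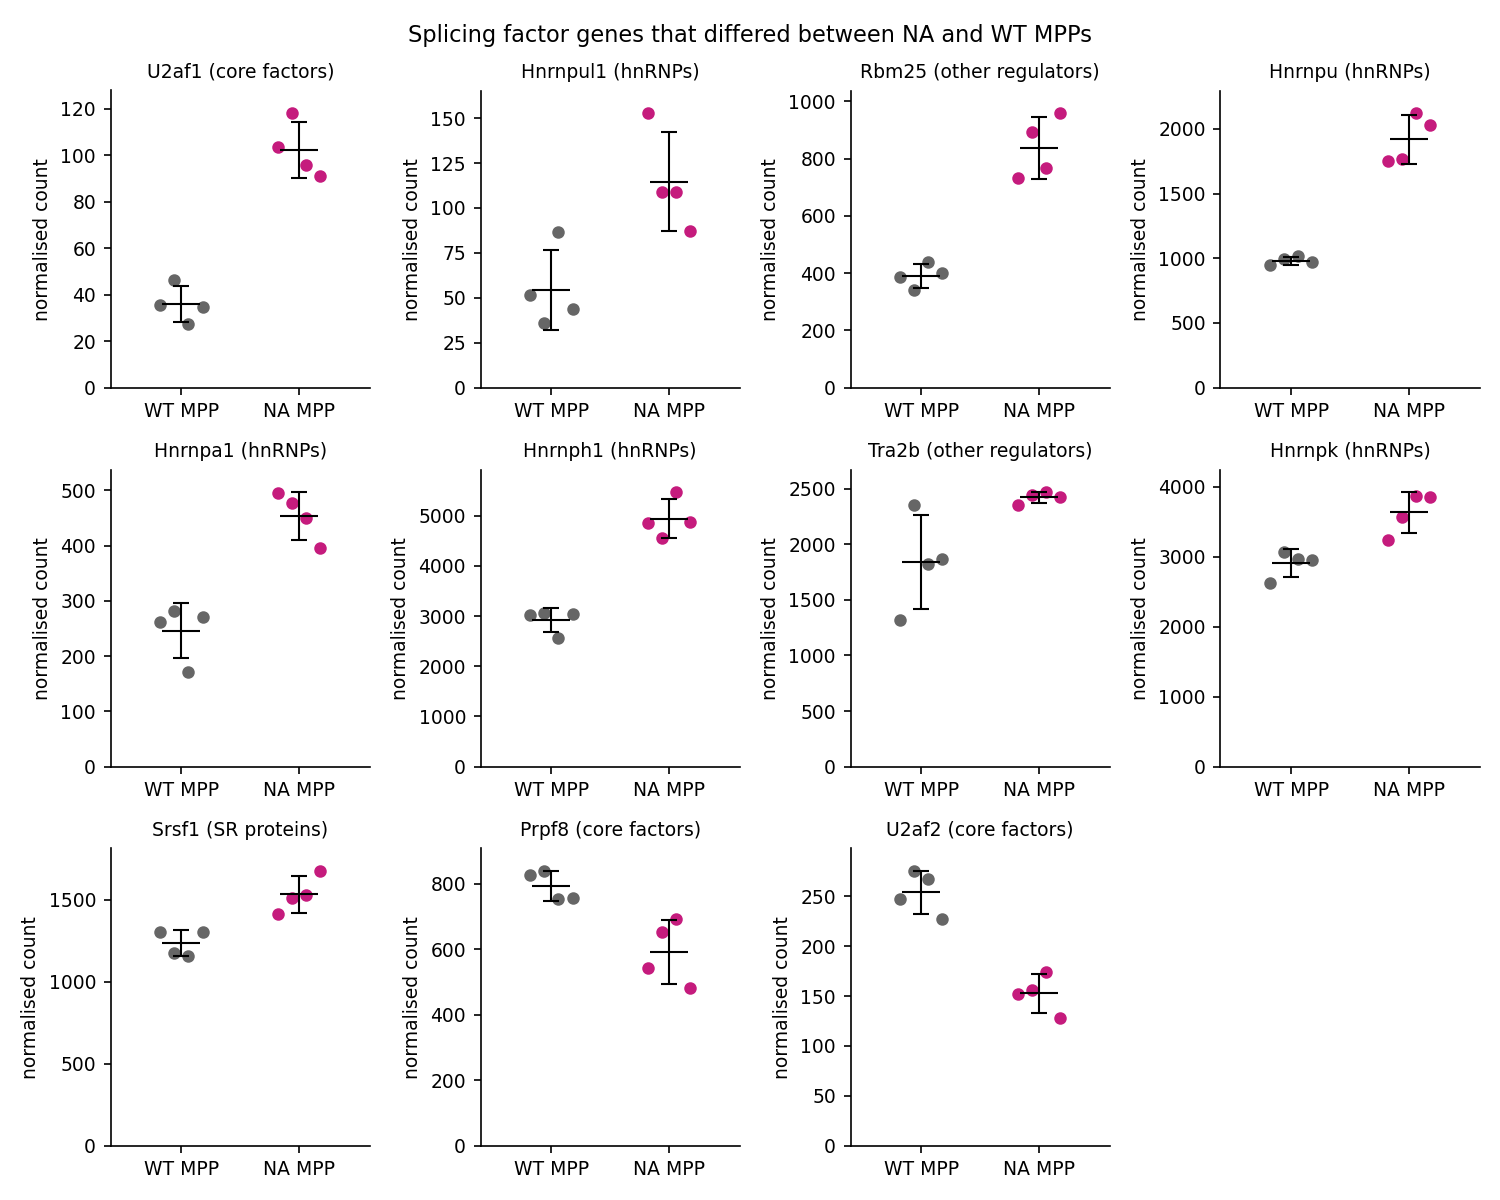
Normalised counts of the 11 splicing genes with a limma adjusted p below 0.05, by group, each panel from 0. Points are libraries in the order 1 to 4, and bars show the mean and SD (n = 4). The NA and WT points are separate in every panel but that of Tra2b, where WT2 at 2354 lies above NA1 at 2351.

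Among the 16 hnRNPs, 5 were higher, none was lower and 11 did not pass the test. Of all tested genes, 10.1% were called higher and 7.87% lower. Hnrnpu (chr1:178321108-178337797) encodes a nuclear scaffold-associated RNA-binding protein. Its normalised counts were 1749, 1765, 2126 and 2030 in NA1 to NA4 and 944.6, 992.0, 1014 and 973.0 in WT1 to WT4. Every NA MPP library lay far above the narrow WT range, and Hnrnpu rose by 0.96 (SE 0.0851, limma adjusted p = 5e-06), the smallest adjusted p of the 39 genes. Hnrnpul1 (chr7:25721165-25754757), a related gene, was measured at 153.1, 109.0, 108.9 and 87.4 in NA1 to NA4 and at 51.5, 36.2, 86.5 and 43.5 in WT1 to WT4. The groups were separated only narrowly, NA4 lying just above WT3, and Hnrnpul1 rose by 1.11 (SE 0.270, limma adjusted p = 0.0120), a call that did not pass without the fourth libraries (0.0679). The third gene of this type, Hnrnpul2, had a log2 fold change of -0.23 with a 95% confidence interval from -0.63 to 0.16, and its WT MPP libraries spread from 229 to 483.

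Hnrnpa1 (chr15:103240432-103246692), which represses exons by binding silencer sequences, was at 495.7, 476.6, 450.6 and 395.7 in NA1 to NA4 and at 261.0, 282.0, 171.9 and 270.8 in WT1 to WT4. NA and WT libraries were well separated, and Hnrnpa1 rose by 0.90 (SE 0.153, limma adjusted p = 0.00131). Of 8 near copies of Hnrnpa1, 5 are in the table, and they held at most 5.24% of the combined normalised count. With them added, the means were 473.7 ± 42.8 (SD, n = 4) in NA MPPs and 253.4 ± 51.6 in WT MPPs, again without overlap. Its 3 paralogs in the list were not called. Hnrnpa2b1 had a log2 fold change of -0.12 (95% confidence interval -0.27 to 0.03), Hnrnpa3 one of 0.20 (-0.01 to 0.40) and Hnrnpa0 one of 0.21 (0.04 to 0.38). Hnrnpa3 has 25 near copies, 18 of them in the table, so its total is uncertain.

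Hnrnph1 (chr11:50376990-50386528), which binds runs of G, was measured at 4863, 4567, 5484 and 4871 normalised counts in NA1 to NA4 and at 3022, 3064, 2573 and 3043 in WT1 to WT4. The gap between the groups exceeded the range of either, and Hnrnph1 rose by 0.76 (SE 0.0819, limma adjusted p = 3.5e-05). Its relatives Hnrnpf and Hnrnph3 were not called, with log2 fold changes of 0.02 (95% confidence interval -0.17 to 0.22) and 0.13 (-0.10 to 0.35). Hnrnpk (chr13:58391142-58403343), a binder of C-rich sequence, was at 3247, 3567, 3875 and 3862 in NA1 to NA4 and at 2621, 3075, 2974 and 2962 in WT1 to WT4. NA1 was only slightly above the highest WT MPP library, and Hnrnpk rose by 0.32 (SE 0.0811, limma adjusted p = 0.0144). Without the fourth libraries its adjusted p was 0.108.

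Groups did not overlap for 43.75% of the 16 hnRNPs, against 22.0% of all tested genes. Of the 11 uncalled hnRNPs, 2 had groups that did not overlap. Hnrnpd, also known for binding AU-rich elements in mRNA, was measured at 502 to 630 in NA MPPs and at 437 to 475 in WT MPPs (log2 fold change 0.28, limma adjusted p = 0.0693). Hnrnpc, which binds U tracts, was at 1304 to 1400 in NA MPPs and 1407 to 1622 in WT MPPs (log2 fold change -0.20, limma adjusted p = 0.0831), and only a small gap between NA4 and WT2 separated its groups. With the 1 near copy of Hnrnpc added, the groups overlapped, from 1329 to 1422 in NA MPPs and from 1421 to 1663 in WT MPPs. Hnrnpl, Hnrnpm and Hnrnpr had log2 fold changes of 0.19, 0.15 and 0.16, none called. Reads of Hnrnpm and of an overlapping gene may have been split, since up to 27.2% of the combined normalised count was in the other gene. Over the 16 hnRNPs the median log2 fold change was 0.20, and 13 values were above 0. Their summed normalised counts were 25511 ± 623 (SD, n = 4) in NA MPPs, from 24946 to 26326, and 21377 ± 611 in WT MPPs, from 20825 to 22225, with no overlap. Most of that difference lay in Hnrnph1 (means of 4946 in NA MPPs and 2926 in WT MPPs), Hnrnpu (1918 and 981) and Hnrnpk (3638 and 2908). The sum thus describes these genes more than the family. As a share of each library the hnRNPs held 0.557% ± 0.0157 in NA MPPs and 0.489% ± 0.0224 in WT MPPs.

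SR proteins carry an arginine-serine domain and bind enhancer sequences in exons. Of the 9 tested, only Srsf1 was called (11.1%), near the 10.1% of all tested genes called higher. The family median was 0.03 and log2 fold changes ran from -0.21 to 0.31. Srsf1 (chr11:88047373-88053755) was at 1413, 1512, 1528 and 1679 normalised counts in NA1 to NA4 and at 1304, 1179, 1156 and 1304 in WT1 to WT4. The groups did not overlap, and Srsf1 rose by 0.31 (SE 0.0832, limma adjusted p = 0.0198). Its call was lost without NA4 (limma adjusted p = 0.0702), without WT3 (0.0523) or without the fourth libraries (0.134).

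For the SR proteins that were not called, the intervals cover the spread between libraries in this fit but not the choice of processing. With the trend on GC content removed, Srsf3 was at -0.180, below the -0.168 at which its interval began. Srsf3, Srsf7, Srsf10 and Srsf11 had log2 fold changes between -0.07 and 0.08, and their 95% confidence intervals ran from -0.28 at the lowest to 0.30 at the highest. Srsf5 was at 0.19 (-0.02 to 0.41). Srsf6 was measured at 2966 to 3306 in NA MPPs and at 3351 to 3768 in WT MPPs, without overlap (log2 fold change -0.19, limma adjusted p = 0.0906). Srsf2 was measured at 223.8, 139.9, 188.6 and 246.5 in NA1 to NA4 and at 223.1, 96.2, 184.6 and 553.5 in WT1 to WT4. WT4 alone stood above all other libraries, and the interval of its log2 fold change was wide, from -0.95 to 0.65. Srsf9 was low in every library, from 18.9 to 37.6, and its interval ran from -0.87 to 0.45. Srsf4, left out of the test for its low level, was at 1.87, 3.76, 9.23 and 4.72 in NA1 to NA4, or about 2, 4, 10 and 4 estimated reads, and at 0 in all 4 WT MPP libraries. The NA MPP mean of 4.90 was 1.61-fold a floor of 3 reads in each WT MPP library, 3.03 on average. Such floors cover counting error only, and only that of the WT MPP libraries. The ratio is thus no lower bound on the change, since NA1 itself lay below that floor and NA3 held the most reads. The summed normalised counts of the 10 SR genes were 13055 ± 537 (SD, n = 4) in NA MPPs and 12984 ± 556 in WT MPPs.

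All 8 other regulators had log2 fold changes above 0, from 0.05 to 1.09 with a median of 0.26. With the GC trend removed, Rbm39 was at -0.09 and Clk1 at -0.07, and the others stayed above 0. Under total scaling Rbm39 was at -0.02. As reported, 2 of the 8 were called (25%), against 17.9% of all tested genes. Rbm25 (chr12:83631236-83683123), a regulator of alternative splicing that associates with the U1 particle, was at 730.9, 893.0, 767.3 and 961.4 normalised counts in NA1 to NA4 and at 386.2, 339.7, 440.6 and 399.5 in WT1 to WT4. The lowest NA MPP library was well above the highest WT MPP library, and Rbm25 rose by 1.09 (SE 0.115, limma adjusted p = 2.7e-05). Tra2b (chr16:22244549-22266005), an SR-like activator of exons, was at 2351, 2444, 2471 and 2427 in NA1 to NA4 and at 1317, 2354, 1821 and 1865 in WT1 to WT4. The groups overlapped through WT2, and Tra2b rose by 0.43 (SE 0.130, limma adjusted p = 0.0354), the largest adjusted p of the 11 calls. It passed in only 1 of the 8 fits that each left out 1 library, the one without WT2, and not without the fourth libraries (0.137).

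The remaining 6 regulators did not pass. Tra2a, the close relative of Tra2b, had a log2 fold change of 0.32 (95% confidence interval 0.09 to 0.55, limma adjusted p = 0.0566). Ptbp1, a repressor that binds pyrimidine tracts, ran from 147 to 295 in NA MPPs and from 145 to 250 in WT MPPs (log2 fold change 0.42, interval -0.05 to 0.90). Luc7l2, a protein of the U1 particle, lay at 664 to 713 in NA MPPs and 580 to 627 in WT MPPs without overlap (log2 fold change 0.20, limma adjusted p = 0.123). Ddx5, an RNA helicase with the highest normalised counts of the 40 genes, had means of 10111 ± 556 (SD, n = 4) and 8926 ± 622 (log2 fold change 0.18, limma adjusted p = 0.102). Clk1, a kinase that phosphorylates SR proteins, and Rbm39, an RNA-binding protein related to U2AF, had values of 0.12 (-0.09 to 0.33) and 0.05 (-0.13 to 0.23). Summed over the 8 genes, normalised counts were 21807 ± 1162 (SD, n = 4) in NA MPPs, from 20298 to 23071, and 18816 ± 1411 in WT MPPs, from 17135 to 20384, so the groups overlapped slightly.

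Between genes, levels were compared per 1000 bases of the principal transcript. In WT MPPs Hnrnpa2b1 was highest at 2982 ± 162 (SD, n = 4), followed by Ddx5 at 2508 ± 175, with ranges that did not overlap. Clk1 at 1772 ± 201 came next, also apart, and Hnrnph1 at 1205 ± 97.1, Srsf5 at 1089 ± 138 and Hnrnpk at 1087 ± 74.0 had ranges that overlapped. In NA MPPs Ddx5 at 2841 ± 156 and Hnrnpa2b1 at 2737 ± 117 overlapped, and so did Hnrnph1 at 2038 ± 159 and Clk1 at 1928 ± 230. At the lower end, U2af1 moved from rank 36 of 40 in WT MPPs to rank 30 in NA MPPs, and U2af2 from rank 28 to rank 34. Hnrnpul1, at 14.4 ± 5.89 in WT MPPs and 30.3 ± 7.29 in NA MPPs, stayed among the 3 lowest, with Srsf9 and Srsf4. The 39 tested genes varied little between libraries of a group: the median coefficient of variation was 8.71% in NA MPPs and 8.67% in WT MPPs, against 17.1% and 14.9% over all tested genes, whose median normalised count was also lower.

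Splicing genes are known for making transcripts that are degraded, through exons that carry a premature stop codon. In GENCODE M21, 28 of the 40 genes (70%) have at least 1 transcript annotated for nonsense-mediated decay, against 28.8% of all tested genes. This held for 9 of the 10 SR genes and for all 8 other regulators. Either such a transcript or one with a retained intron was annotated for 36 genes (90%), against 64.1% of all tested genes. Among the 11 called genes, Hnrnph1, Hnrnpul1 and Prpf8 have no decay transcript in the annotation. A total per gene adds productive and unproductive isoforms, and they cannot be told apart here.

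Over the tested genes, the change went with GC content. Splicing genes that were called higher had a median GC content of the principal transcript of 42.5%, from 40.6% to 54.4%. The 2 lower genes had 51.5% and 55.7%. The 28 that were not called had a median of 44.7%, and all tested genes one of 50.1%. Uncalled splicing genes were thus also low in GC, so the distance from all genes is not particular to the called ones. Over the tested genes that were placed in a GC range, the median log2 fold change went from 0.18 at a GC content of up to 42% to -0.15 above 54%. U2af1 at 54.4% and Hnrnpul1 at 53.99% rose where the median gene of their GC range had a negative value. The trend that was removed used the GC content of the longest coding transcript, which for some genes is not the principal one (Hnrnpa3, 39.9% against 44.8%). With this trend of each library removed, U2af1 was at 1.56, Hnrnpul1 at 1.16, Rbm25 at 0.93, Hnrnpa1 at 0.78, Hnrnpu at 0.77 and Hnrnph1 at 0.64, all still called. Srsf1 (0.12, limma adjusted p = 0.295), Hnrnpk (0.18, limma adjusted p = 0.141) and Tra2b (0.26, limma adjusted p = 0.217) were not. U2af2 and Prpf8 stayed lower, and Srsf6 (-0.33, limma adjusted p = 0.00616), Hnrnpc (-0.35, limma adjusted p = 0.00502) and Hnrnpa2b1 (-0.26, limma adjusted p = 0.0172) were called lower beside them, while Hnrnpa0 was called higher (0.29, limma adjusted p = 0.0393). In that fit 7 genes were higher and 5 lower, and 17.3% of all genes were called. The family medians were then -0.13 for SR proteins, 0.11 for hnRNPs, 0.01 for core factors and 0.11 for other regulators.

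**Figure D3:**
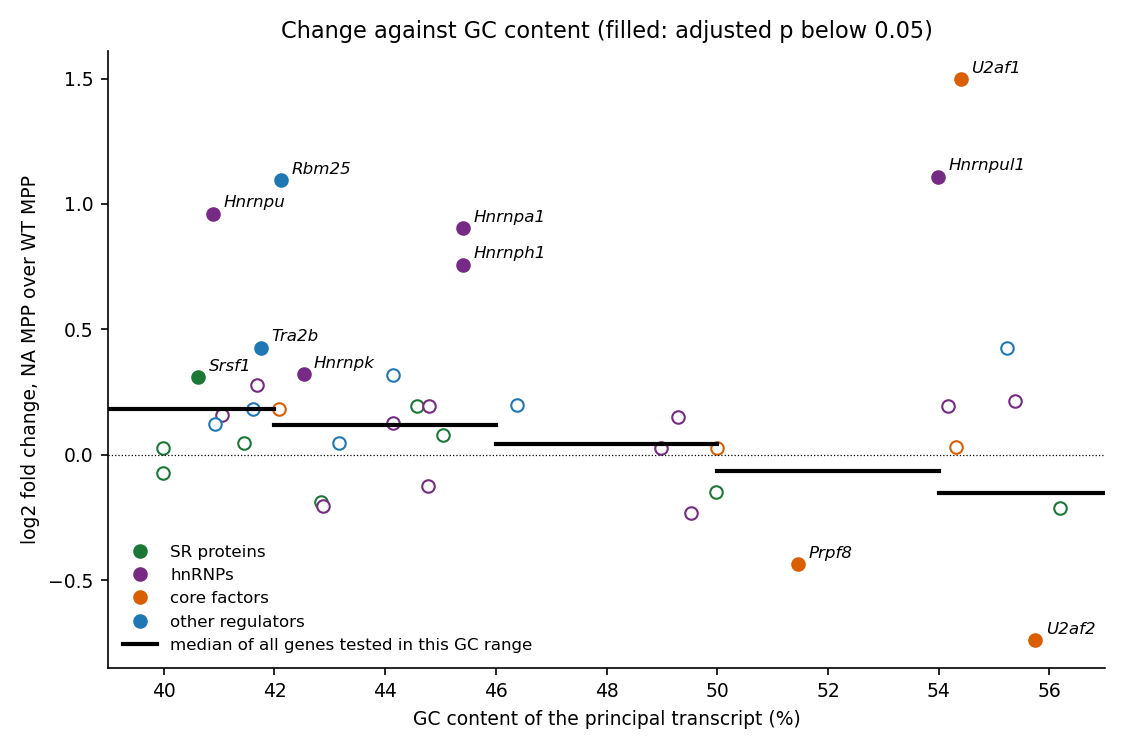
Log2 fold change of NA MPP over WT MPP (vertical axis) against the GC content of the principal transcript in percent (horizontal axis) for the 39 tested splicing genes, coloured by family and filled where the adjusted p was below 0.05. Black bars are medians of the tested genes placed in 5 GC ranges, from 0.18 at the left to -0.15 at the right. U2af1 and Hnrnpul1 lie far above the bar of their range.

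The wider splicing machinery was followed through 140 other spliceosome genes, of which 136 were tested. Of these, 25 were higher and 10 lower, or 25.7% against 17.9% of all tested genes, with a median log2 fold change of 0.02. Without the fourth libraries 10 were higher and 1 lower. The counts by class are small and stand beside 10.1% of all tested genes called higher and 7.87% called lower. Several were near these shares, such as the higher counts of the exon junction complex and the late-step factors. Among U1 and Sm proteins, which form the particle cores, 1 of 10 was higher and 3 were lower, with a median of -0.20. The U2 and branch point proteins had none higher and 1 of 12 lower, and the tri-snRNP proteins had 3 of 20 higher and 2 lower. Among other hnRNPs and RNA-binding regulators 8 of 27 were higher and none lower, with a median of 0.18. With the GC trend removed, 6 of this class were higher and 2 lower, and its median was 0.01. Among SR-related proteins 6 of 21 were higher and 2 lower. In the minor spliceosome, which removes a rare intron class, 2 of 9 were higher and the median was 0.44, or 0.22 with the GC trend removed. SR protein kinases had 2 of 7 higher, the exon junction complex 1 of 9 higher, and the late-step factors 2 of 21 higher and 2 lower.

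**Figure D4:**
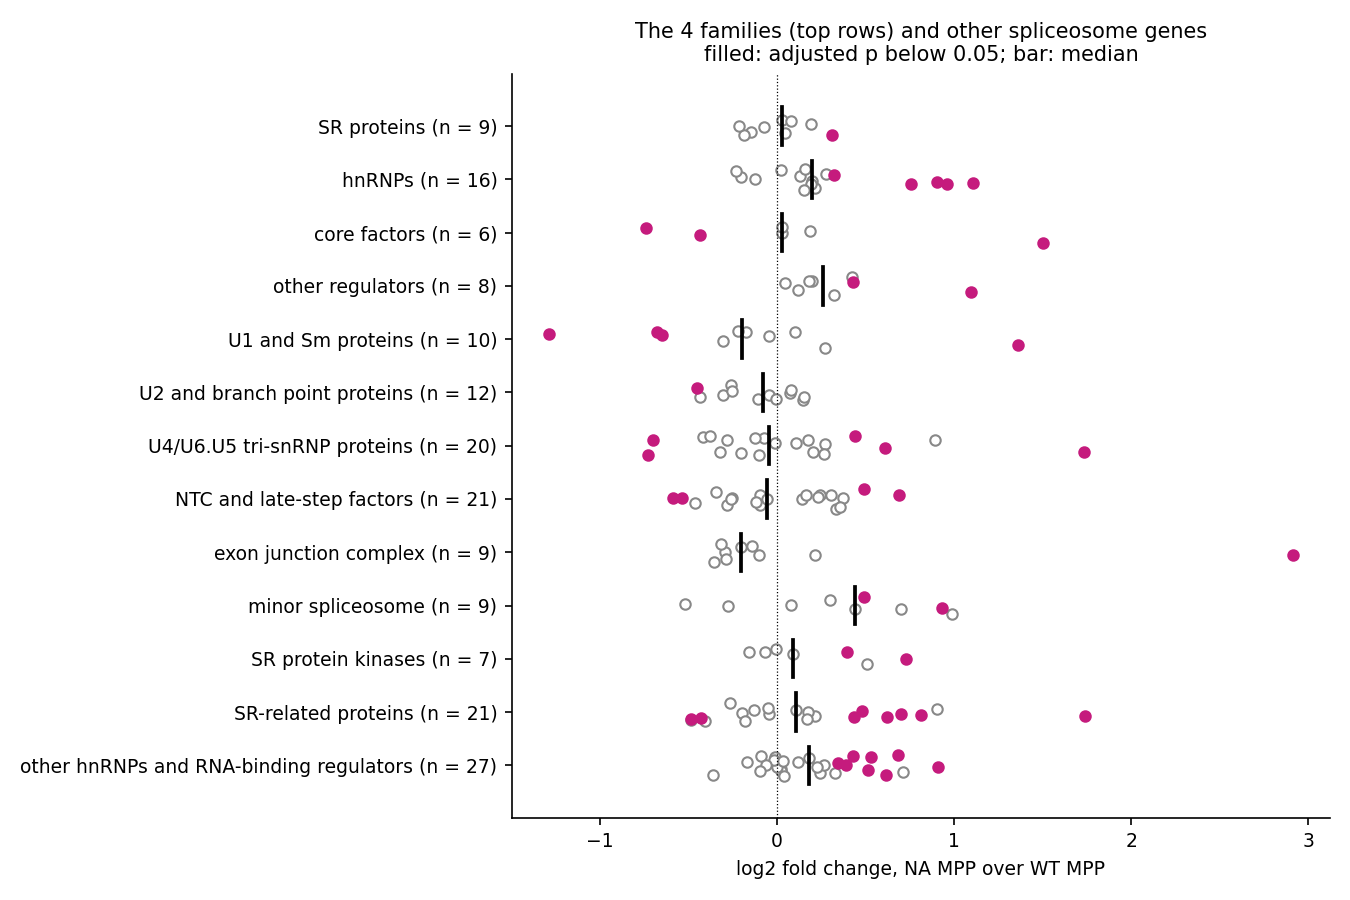
Log2 fold change of NA MPP over WT MPP (horizontal axis) for the tested genes of the 4 families (top 4 rows) and of 9 classes of other spliceosome genes, 1 point per gene. Filled points passed an adjusted p of 0.05 and vertical bars are class medians, which run from -0.20 in U1 and Sm proteins and in the exon junction complex to 0.44 in the minor spliceosome.

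Of the called genes in the wider list, Acin1, an RNA-binding factor of the exon junction complex, had the highest log2 fold change. It was at 445.3, 486.9, 393.3 and 399.2 normalised counts in NA1 to NA4 and at 57.7, 180.1, 14.8 and 63.0 in WT1 to WT4. The WT MPP libraries varied widely but stayed below all NA MPP libraries (log2 fold change 2.91, limma adjusted p = 0.00121). Scaf4 (1.74), Lsm5 (1.73), Snrnp70 (1.36), Zrsr2 (0.93) and Ewsr1 (0.91) followed on the log2 scale. Snrnp70, the U1 protein, overlapped between groups and was not called without the fourth libraries (limma adjusted p = 0.0829). Zrsr2, which reads the intron end in the minor spliceosome and lies on the X chromosome, overlapped as well. Scaf4, Lsm5 and Ewsr1 did not overlap and kept their calls without the fourth libraries.

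The 6 lowest called genes of the wider list were Snrpd3 (-1.29), Ppih (-0.73), Txnl4a (-0.70), Snrpa (-0.68), Snrpb (-0.65) and Dhx8 (-0.59). Snrpd3 and Snrpb encode Sm proteins and Snrpa a protein of the U1 particle. Snrpb was at 1003 ± 122 normalised counts (SD, n = 4) in NA MPPs and 1567 ± 88.1 in WT MPPs (limma adjusted p = 0.000446) and was the only gene of the 6 still called without the fourth libraries (0.00683).

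Other transcripts moved with the same contrast, and their part in these results was not tested. The summed normalised counts of 8 erythroid markers were 35.4 to 64.9 in NA MPPs and 147 to 296 in WT MPPs, with 1 of 8 called lower. For 8 neutrophil markers the sums were 1390 to 1709 and 1750 to 2629, with 2 called lower and Elane at or near 0. Most of the neutrophil sum was Prtn3, with means of 1523 in NA MPPs and 2028 in WT MPPs. For 7 monocyte and macrophage markers the sums were 9.23 to 52.3 and 54.6 to 96.3, with none called. For 7 mast cell and basophil markers the sums were 1068 to 1261 and 813 to 1017, with Gata2 called higher and Fcer1a, Mcpt8 and Prss34 at or near 0. Almost all of that sum was Gata2, with means of 1166 in NA MPPs and 930 in WT MPPs, so it describes 1 gene rather than a cell type. Sums overlapped for 8 B cell markers (101 to 239 and 182 to 269, with Pax5, Ms4a1 and Igll1 at or near 0), 8 T and NK cell markers (148 to 171 and 134 to 153, with Cd3e, Cd3d, Cd3g, Cd8a and Gzma at or near 0) and 6 megakaryocyte markers (206 to 288 and 216 to 290), and none of these genes was called. Immediate early genes were higher in NA MPPs, Fos by 3.37, Egr1 by 2.64 and Jun by 1.17 on the log2 scale. Of the 2 nuclear RNAs examined, Malat1 was higher (0.74, limma adjusted p = 0.000491) and Neat1 lower (-0.36, limma adjusted p = 0.00923). Without the fourth libraries, Malat1, Fos, Egr1, Jun and the erythroid Hbb-bt kept their calls, whereas Neat1 (limma adjusted p = 0.134), Gata2 (0.192) and the neutrophil genes Mpo (0.143) and Prtn3 (0.0881) did not.

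The calls were compared over 19 alternative fits, which changed the scaling, the pseudocount, the low-value filter, the variance model, the covariates or the libraries. U2af1, Rbm25, Hnrnpu, Hnrnpa1, Hnrnph1 and U2af2 were called in all 19 of them, in 1 direction each. Hnrnpul1 failed only without the fourth libraries. Hnrnpk, Prpf8, Srsf1 and Tra2b were lost in 3 or more of them.

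**Figure D5:**
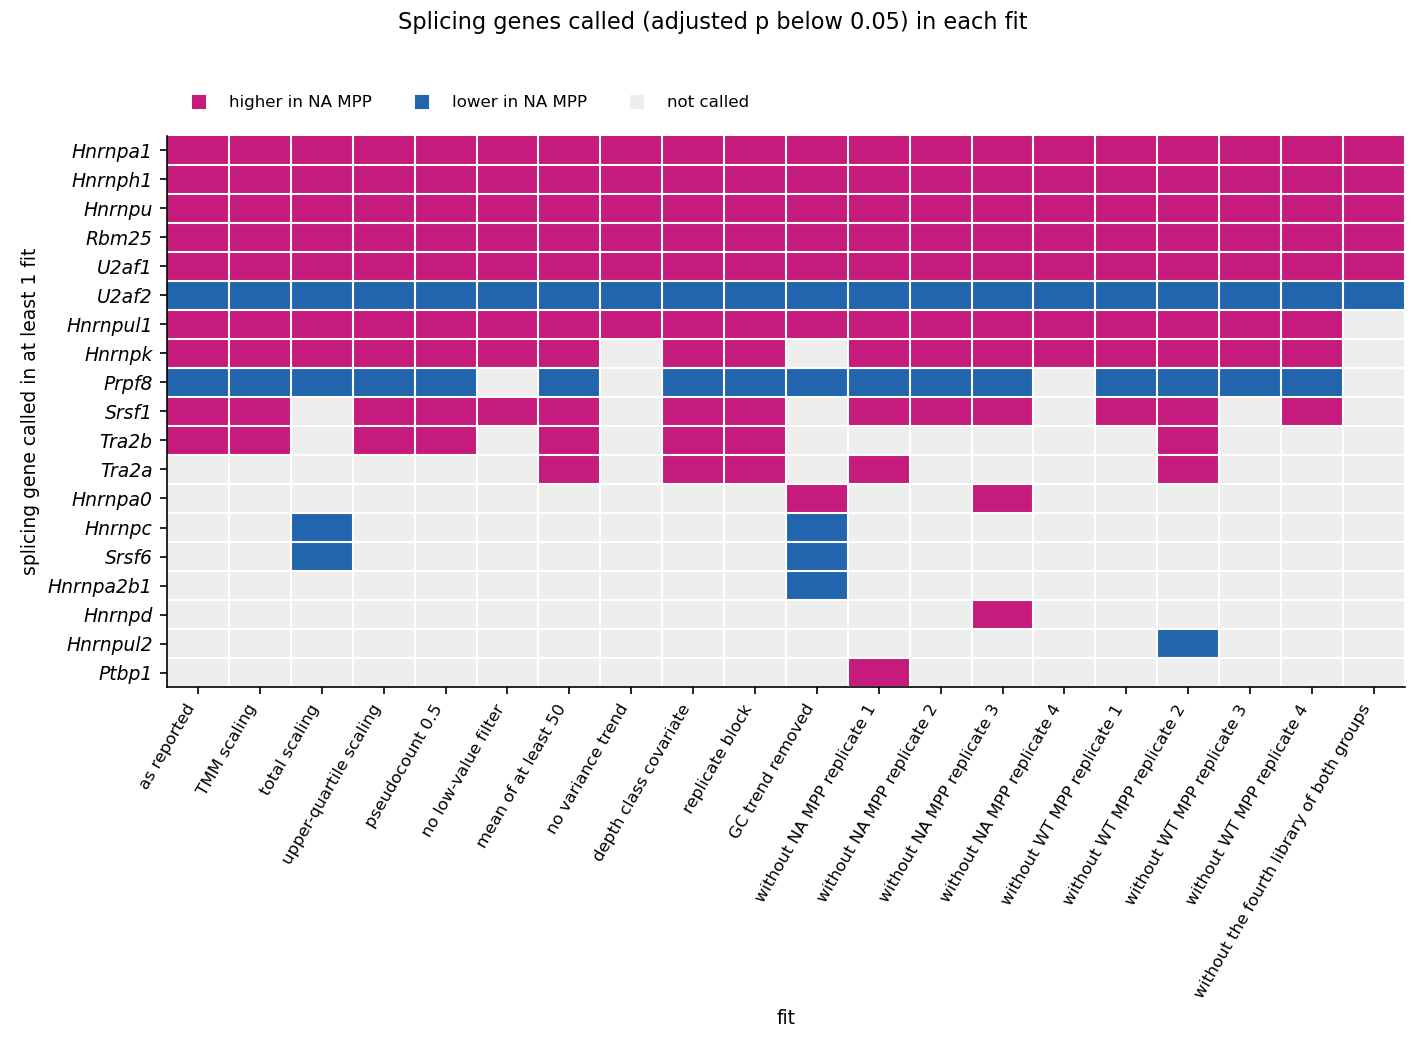
Calls of the 19 splicing genes, of the 39 tested, that passed an adjusted p of 0.05 in at least 1 fit (rows) in the fit as reported and in 19 alternatives (columns). Magenta is higher and blue lower in NA MPP, and grey is not called. Srsf4, which entered only the fit without a low-value filter and passed there, is not shown. The top 6 rows are filled throughout, and no gene changes colour between magenta and blue.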

How the data were processed

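The authors sorted MPPs, amplified cDNA of 1000 cells per library and sequenced Nextera XT libraries. Per the labels, reads were handled with bcl2fastq, RSEM and DESeq2 on mm10. Versions, annotation and strand use are not given in the sources used here. The table carries the name raw counts, and as deposited by the authors it holds a normalised signal, namely expected counts already divided by 1 factor per library: from 98.3% to 98.8% of low values in a library were whole multiples, within 0.02, of a step between 0.888 and 1.18. Depth was estimated from that step. Symbols, coordinates and transcripts came from GENCODE M21, promoters from RefSeq GRCm38.p6, and rows without a symbol held 0.779% of the summed values.

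Log2(normalised count + 1) was tested with limma 3.58.1 in R 4.3.3 with a mean-variance trend and no covariates, on genes that reached 10 normalised counts in 4 or more libraries. P-values were adjusted by Benjamini-Hochberg over all genes tested, and the threshold was 0.05. Fold changes are on this scale, which understates those of low genes. On simulated data with 200 genes changed 2-fold among 11206, 61% of them were called. That share is not the power of the test on the real data. There, 17.9% of genes were called, and the simulated libraries were independent. Near copies were transcripts of other genes with at least 95% identity over at least 300 bases. Genes, lists and families were chosen with earlier results of these data known. Named were all 40 genes, the 6 highest and 6 lowest called other spliceosome genes whose mean reached 50 normalised counts, and control genes. The level of 1 marker gene is not reported here. Alternative fits are described in the closing section.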

Additional observations from a re-analysis of the deposited data

Results flagged for a closer look

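Of the 79 groups of 4 libraries examined, 2 for each gene where values varied, 6 held a library that stood apart from the other 3, where chance gives about 3.95. A library stood apart where its gap to the nearest one exceeded Dixon's critical share of the range of the group. In NA MPPs these were Srsf11, lowest in NA1 at 1276 normalised counts against 1513 to 1557, and Hnrnpc, highest in NA4 at 1400 against 1304 to 1316. In WT MPPs, Hnrnpa0 was highest in WT4 at 2555 against 2249 to 2294, Hnrnpa2b1 was lowest in WT2 at 4555 against 5057 to 5111, Hnrnpa3 was lowest in WT2 at 625.1 against 744.0 to 756.4, and Hnrnph1 was lowest in WT3 at 2573 against 3022 to 3064. Of the 6, only Hnrnph1 was called between the groups, and it was also called without WT3.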

How the results depend on the processing

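Over the 19 alternative fits, 740 fits of single splicing genes gave 699 unchanged calls, 26 lost calls, 15 gained calls and 0 reversals. Without the fourth library of both groups, splicing genes called higher numbered 5 and those called lower 1, and other spliceosome genes 10 and 1. The counts of lower splicing genes were 4 under total scaling, 1 without a low-value filter, 1 without a variance trend and 5 with the GC trend removed. Other spliceosome genes called lower numbered 19 under total scaling, 6 without a filter, 6 without a variance trend, 6 with depth class as a covariate and 16 with the GC trend removed, and those called higher were 16 without a variance trend. Leaving out 1 library at a time gave 7 to 10 splicing genes higher and 1 to 3 lower (1 without NA4), and 18 to 25 and 6 to 10 other spliceosome genes (6 lower without WT3 or WT4). With the GC trend removed the median was -0.13 for SR proteins, 0.11 for hnRNPs and 0.11 for other regulators. The hnRNP median was 0.13 under total scaling, which moved the median of all genes to -0.08 and the share of calls that were higher from 56.1% to 41.3%. Total scaling lost Srsf1 and Tra2b and added Srsf6 and Hnrnpc as lower. The causes were not tested. Srsf4 was called only without a filter.

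With replicate number as a block, 10 splicing genes were higher and 2 lower, Tra2a being added (limma adjusted p = 0.0283), and 26 and 8 other spliceosome genes. Deviations of same-numbered libraries correlated at 0.0874, 0.0271, 0.0131 and 0.158, and those of differently numbered libraries at -0.0943 to 0.101. The largest value was that of the fourth libraries. These values do not decide whether same-numbered libraries were paired. Tests with edgeR and DESeq2 on recovered reads were planned and not run, because the values are not counts. Depth limits Srsf4, at up to 10 estimated reads, and Srsf9.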
